A study of Mus musculus with 12 samples.

Results

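The 10 genes described here cover sterol efflux and its control in skin. They were chosen by symbol as the sterol efflux transporters Abca1, Abcg1 and Scarb1, the lipoprotein genes Apoe and Lpl, the liver X receptors (LXR) Nr1h2 and Nr1h3, the Niemann-Pick genes Npc1 and Npc2, and the LXR target Mylip. All 10 were found among the 23282 entries of the count table, each listed 1 time. Skin RNA from wild-type male C57BL/6J mice, aged 5 weeks at the start, was sequenced from the 3′ ends of mRNA in 12 libraries. The AD group (5 libraries) received 0.5% 2,4-dinitrochlorobenzene (DNCB), a hapten that gives atopic dermatitis-like lesions, on the skin 3 times a week for 6 weeks on a standard diet. The HF + AD group (7 libraries, labelled AD+OB) received the same DNCB and a high-fat diet for 10 weeks in all. Every library thus came from DNCB-treated skin, and no untreated skin was analysed here.

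Cholesterol that cells cannot use is not degraded in peripheral tissue, so it is exported. Niemann-Pick proteins move cholesterol out of lysosomes, ABC transporters pass it to apolipoproteins and lipoprotein particles, and the particles carry it away. Its oxidised forms bind LXR, which pairs with a retinoid X receptor (RXR) on DNA and switches on genes of this route. In skin, LXR and its targets are active in keratinocytes, sebaceous glands and macrophages, and they take part in building the lipid barrier.

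Between 9746937 and 13462434 reads per library were counted on genes, and values are given as CPM, counts scaled to a common library total after TMM normalisation in edgeR. A count of 0 in 1 library allows up to 3 counts, or 0.223 to 0.308 CPM, a limit that covers counting error only. At least 1 read was found on 13100 to 15063 genes per AD library and on 15522 to 16677 per HF + AD library, without overlap. AD libraries also agreed less with each other (median Pearson's r across genes 0.883, over 10 pairs) than HF + AD libraries (0.958, over 21 pairs). Whether this has a part in the results below was not tested. Krt5, a keratin that marks the basal epidermis, was at 2232 CPM or more in every library. Nothing in the labels says that each library came from another mouse, so the p-values measure the spread between these samples.

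LXR-RXR pairs bind 2 half-sites spaced by 4 bases, and the promoters of Abca1, the best known LXR target, and of Apoe, the gene with the clearest difference here, are shown for that reason. Sequences are from RefSeq on GRCm38.p6, 250 bases before to 50 after the start of transcription, written 5′ to 3′ on the strand of the gene. The motif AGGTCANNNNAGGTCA was searched on both strands with up to 3 mismatches over its 12 fixed bases, and capitals mark a match.
Abca1 (chr4:53159846-53160145, minus strand): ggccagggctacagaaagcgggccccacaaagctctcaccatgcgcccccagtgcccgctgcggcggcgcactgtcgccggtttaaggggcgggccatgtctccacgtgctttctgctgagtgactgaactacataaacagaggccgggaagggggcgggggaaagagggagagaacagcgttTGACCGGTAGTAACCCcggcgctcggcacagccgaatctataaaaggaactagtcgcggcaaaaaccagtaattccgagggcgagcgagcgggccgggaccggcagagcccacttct
Apoe (chr7:19699139-19699438, minus strand): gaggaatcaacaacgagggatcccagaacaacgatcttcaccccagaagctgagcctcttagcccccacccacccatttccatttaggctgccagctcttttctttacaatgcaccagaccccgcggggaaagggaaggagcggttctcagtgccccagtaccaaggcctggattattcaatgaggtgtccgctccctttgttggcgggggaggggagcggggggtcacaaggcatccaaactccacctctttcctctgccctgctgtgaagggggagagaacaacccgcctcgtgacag

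In the Abca1 window 1 match lay at bases -67 to -52 from the start. Read on the opposite strand it is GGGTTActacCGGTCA, with half-sites in capitals, 2 mismatches in the first and 1 in the second. None of the other 8 windows found for the members (3 for Apoe, 2 for Nr1h3 and 1 each for Nr1h2, Npc2 and Mylip) held a match, and Abcg1, Scarb1, Lpl and Npc1 have no window here. Of all 32851 promoter windows in the table, 21.9% held such a match and 0.0152% a perfect one. Binding was not measured in these data, so a match here shows likeness in letters only, and a missing match says nothing of binding elsewhere.

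Apoe, which encodes the apolipoprotein that takes up cellular cholesterol and steers particles to their receptors, was the member that rose in the HF + AD group. It lies on chromosome 7 from 19696109 to 19699188 (GENCODE M21, GRCm38). In AD libraries 1 to 5 it stood at 1628, 1788, 2087, 2253 and 3621 CPM. In the HF + AD libraries it ran from 4239 over a median of 4759 to 6785 CPM. AD library 5 was the highest of its group, and even so all 7 HF + AD libraries lay above it. The level was 2.23-fold higher in the HF + AD group, a log2 fold change of 1.16 (SE 0.19, adjusted p = 0.00459, edgeR quasi-likelihood test). An exact permutation test of the mean log2(CPM + 1), two-sided, gave p = 0.00126, the smallest that 792 splits allow. No other member had groups that did not overlap, while 2.89% of the 14163 genes tested were higher without overlap and 5.45% were without overlap in either direction.

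**Figure D1:**
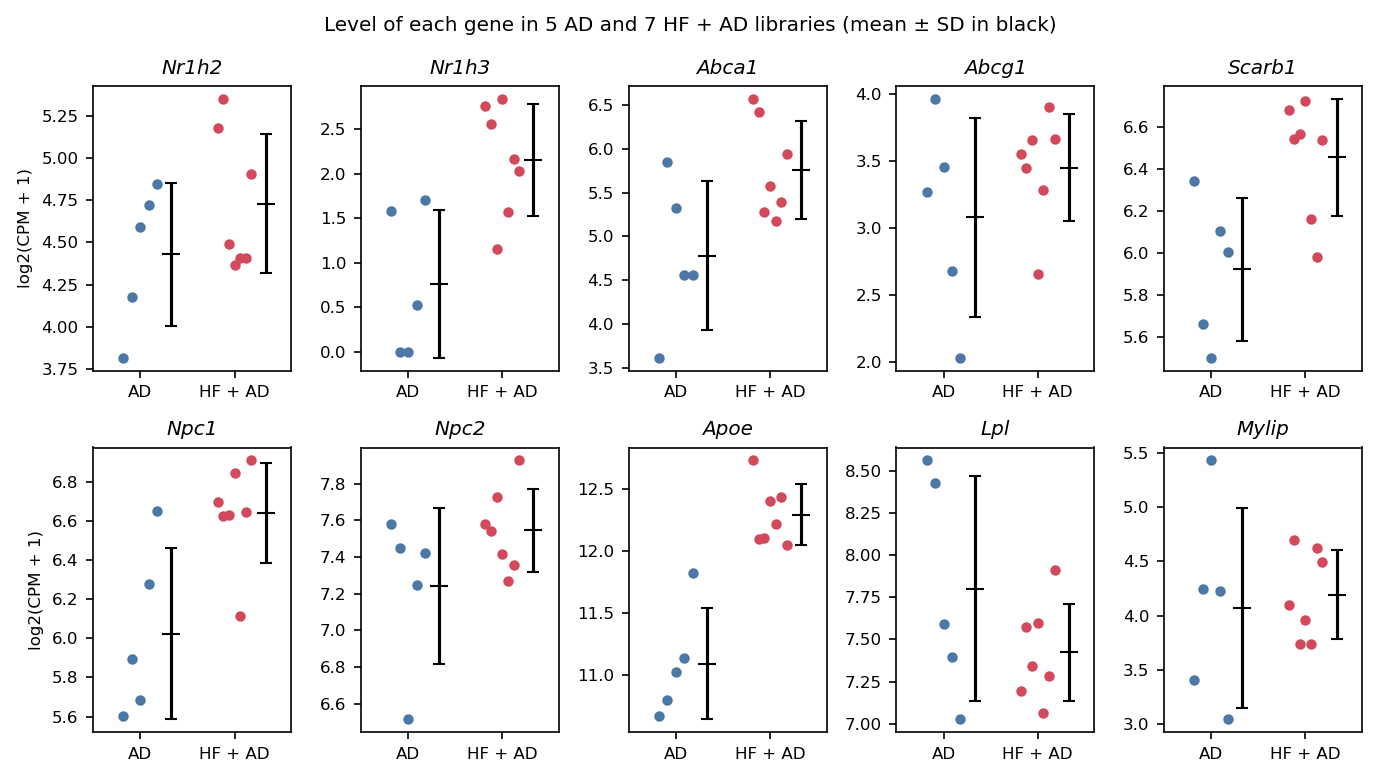
Level of each gene, as log2(CPM + 1), in the 5 AD (blue) and 7 HF + AD (red) libraries, with the mean and SD of each group in black. Only for Apoe do all HF + AD points lie above all AD points, and each panel has its own axis, which does not start at 0.

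By that test 1 of the 10 members was called higher and 0 were called lower, beside 4.43% of all genes tested called higher and 4.77% lower (9.2% in all). Counted at an unadjusted p under 0.05, edgeR gave 4 members higher (Apoe, Npc1, Scarb1 and Abca1) and 0 lower, against 12.3% and 12.8% of all genes. DESeq2 and limma-trend each called 3 members higher and 0 lower. Of the 12504 genes that DESeq2 gave an adjusted p, which leave out Nr1h3, it called 7.55% higher and 8.01% lower. Of all genes tested, limma-trend called 6.19% higher and 4.82% lower. The direction was higher for 8 members, with a median log2 fold change over all 10 of 0.42, while 51.7% of all genes tested were higher and their median was 0.023. Among all genes called, 48.1% were higher. Over the alternatives that kept all 12 libraries, this share ran from 35.2% with a correction for GC content to 61.6% with library quality weights. With library totals alone it was 59.1%.

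**Figure D2:**
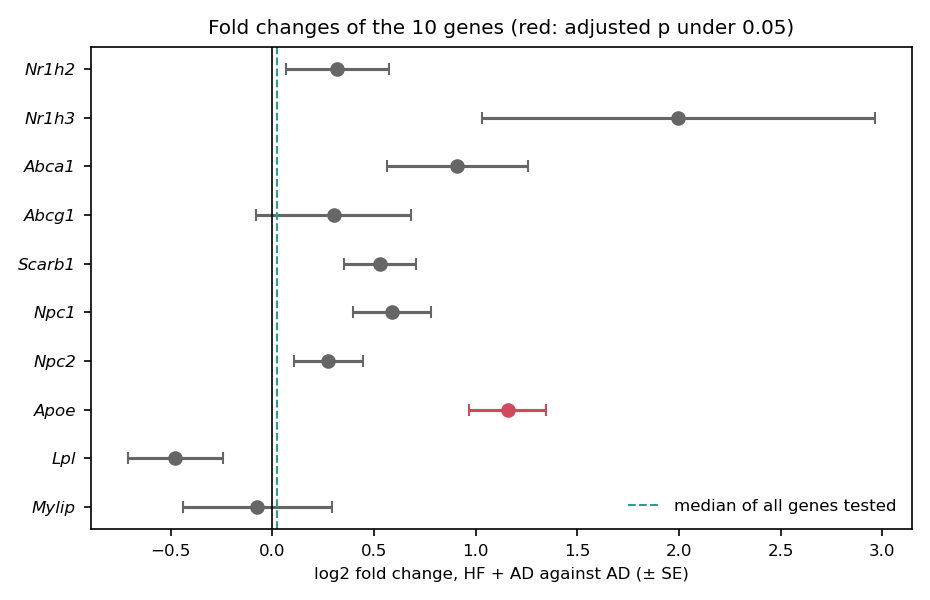
Log2 fold change of each gene in HF + AD against AD with its SE, from the edgeR fit of 12 libraries. Only Apoe (red, 1.16) has an adjusted p under 0.05, Nr1h3 has the widest error (SE 0.97), and the dashed line is the median of all genes tested (0.023).

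Nr1h3 encodes LXR alpha, the form enriched in liver, fat and macrophages, and it was near the limit of detection in the AD group. Its counts in AD libraries 1 to 5 were 22, 0, 0, 5 and 25 reads, or 0 to 2.26 CPM. In the HF + AD group 17 to 75 reads were counted, or 1.23 to 6.17 CPM with a median of 3.51. AD libraries 2 and 3 held no read, and 5 of the 7 HF + AD libraries lay above all AD libraries. The log2 fold change of 2.00 was the highest of the members, but with an SE of 0.97 it did not pass across all genes (adjusted p = 0.209, edgeR). The adjusted p over 20 alternatives ran from 0.0442 (limma-trend, the 1 that passed) to 0.336. The single-gene exact permutation test, unadjusted, gave p = 0.0114 and passed in all 16 of its alternatives, the highest p being 0.0290.

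Nr1h2 encodes LXR beta, the form found in most cells. It was at 13.1, 17.1, 23.1, 25.4 and 27.8 CPM in AD libraries 1 to 5, and from 19.6 to 39.9 CPM with a median of 21.5 in the HF + AD group. HF + AD libraries 1 and 2 stood above the others, 3 of 7 exceeded all AD libraries. The log2 fold change was 0.32 (SE 0.25, adjusted p = 0.476, edgeR), and 0.022 once the GC content of transcripts was corrected for. It was 0.19 without AD library 1 and 0.18 without HF + AD library 2.

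Among the transporters, Abca1 loads cholesterol and phospholipid onto lipid-poor apolipoproteins. Its AD libraries spread widely, from 11.2 CPM in library 1 over 22.5, 22.6 and 39.0 in libraries 4, 5 and 3 to 56.4 in library 2. The HF + AD libraries ran from 35 over a median of 46.5 to 93.8 CPM, and libraries 1 and 2 were again the highest. Of the 7, 3 exceeded all AD libraries, and 3 AD libraries were below all HF + AD ones. The log2 fold change was 0.91 (SE 0.35, adjusted p = 0.108, edgeR), and without AD library 2 it was 1.26 and passed (adjusted p = 0.0429). Its adjusted p passed in 2 of 22 alternatives, in a range of 0.0429 to 0.223. The exact permutation test gave p = 0.0341, and p passed in 9 of 16 alternatives of that test, from 0.0121 to 0.0879.

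Abcg1 passes cholesterol on to particles that already hold lipid. It was at 3.08 to 14.6 CPM in the AD group (median 8.61) and at 5.30 to 13.9 CPM in the HF + AD group (median 10.7). The highest value of all was that of AD library 2, no HF + AD library exceeded all AD libraries, and AD library 5 alone lay below all HF + AD ones. Its log2 fold change of 0.30 (SE 0.38, adjusted p = 0.680, edgeR) was smaller than its error. It was 0.60 without AD library 2, 0.19 without AD library 4 and 0.10 without AD library 5, none of them past the threshold.

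Scarb1 encodes the receptor that exchanges cholesterol esters and phospholipids with high-density lipoprotein. In AD libraries 1 to 5 it was at 80.0, 49.6, 44.2, 67.6 and 63.0 CPM. In the HF + AD group it ran from 62.0 over 92.1 to 104.5 CPM. HF + AD libraries 5 and 6 lay within the AD range and the other 5 above it. The log2 fold change of 0.53 (SE 0.18) missed the threshold across all genes (adjusted p = 0.0686, edgeR). Of 22 alternatives 5 brought it under the threshold, the adjusted p running from 0.0305 to 0.310. The exact permutation test gave p = 0.0139 and passed in all 16 of its alternatives, the highest p being 0.0394. With the GC correction the log2 fold change was 0.28 (adjusted p = 0.310).

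The Niemann-Pick pair hands cholesterol from the lysosome lumen (Npc2, soluble) to its membrane (Npc1, the exporter). Npc1 was at 47.7, 58.5, 50.5, 76.5 and 99.6 CPM in AD libraries 1 to 5 and at 68.3 to 119 CPM (median 99.0) in the HF + AD group. HF + AD library 5 was the lowest of its group, AD libraries 4 and 5 overlapped with the HF + AD values, and 3 of 7 HF + AD libraries exceeded all AD libraries. Its log2 fold change was 0.59 (SE 0.19, adjusted p = 0.0619, edgeR), and it passed in 5 of 22 alternatives, at the lowest without AD library 5 (0.79, adjusted p = 0.0169) and at the highest with an adjusted p of 0.202. The exact permutation test gave p = 0.0202 and passed in all 16 of its alternatives, the highest p being 0.0480. These permutation p-values of single genes are unadjusted. The 3′ end of Npc1 overlaps that of Rmc1 on the other strand by 967 bases. Since no source used here says whether reads were counted by strand, reads of these genes may be mixed. Rmc1, listed under its older symbol 3110002H16Rik, was at 5.05 to 21.8 CPM in the AD group and at 13.4 to 35.9 CPM in the HF + AD group.

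Npc2 was at 90.4 to 191 CPM in the AD group (median 170) and at 153 to 242 CPM in the HF + AD group (median 186). Only AD libraries 3 and 4 lay below all HF + AD libraries, and 3 of 7 HF + AD libraries were above all AD ones. Its log2 fold change was 0.28 (SE 0.17, adjusted p = 0.340, edgeR), 0.13 without AD library 3 and 0.14 with the GC correction.

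Lpl and Mylip were the members with a negative log2 fold change. Lpl encodes the lipase that frees fatty acids from circulating triglyceride-rich particles, mainly in fat and muscle. It was at 377 and 344 CPM in AD libraries 1 and 2, and at 192, 167 and 129 CPM in AD libraries 3, 4 and 5. The HF + AD libraries ran from 133 over 161 to 240 CPM, inside the AD range. The log2 fold change was -0.48 (SE 0.23, adjusted p = 0.216, edgeR), -0.25 without AD library 1, -0.31 without AD library 2 and -0.056 with library quality weights. AD libraries 1 and 2 also had the highest summed level of 12 adipocyte markers in their group (824 and 502 CPM, against 173 to 210 in the other AD libraries and 179 to 692 in the HF + AD group). Fabp4 alone was at 75.4 to 523 CPM in the AD group and 56.2 to 345 CPM in the HF + AD group, so it weighs heavily in these sums. Of the 11 adipocyte markers tested, 6 were higher and 5 lower with a median log2 fold change of 0.10, and 1 was called higher, Lipe, the hormone-sensitive lipase (log2 fold change 0.95, SE 0.29, adjusted p = 0.0456, edgeR), and 0 lower. Summed markers of skeletal muscle (14 genes) were at 1718 to 3684 CPM in the AD group and at 1080 to 2841 CPM in the HF + AD group. Of these muscle markers 13 had a negative log2 fold change, 3 of them called lower (Acta1, Atp2a1 and Ttn), and no gene of either list was at 0 in a whole group. For both lists, the shares over all genes tested were 4.43% called higher and 4.77% called lower. The part of fat and muscle in the Lpl values was not tested, and in whole skin fewer cells of a type and less RNA per cell cannot be told apart.

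Mylip encodes a ubiquitin ligase that LXR induces and that marks lipoprotein receptors for breakdown. It was at 9.61, 17.9, 42.1, 17.7 and 7.24 CPM in AD libraries 1 to 5, and at 12.3 to 24.9 CPM in the HF + AD group (median 16.2). AD library 3 held the highest value and AD library 5 the lowest, with all HF + AD libraries in between. The log2 fold change of -0.075 (SE 0.37, adjusted p = 0.931, edgeR) became 0.45 without AD library 3, so no direction can be given.

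**Figure D3:**
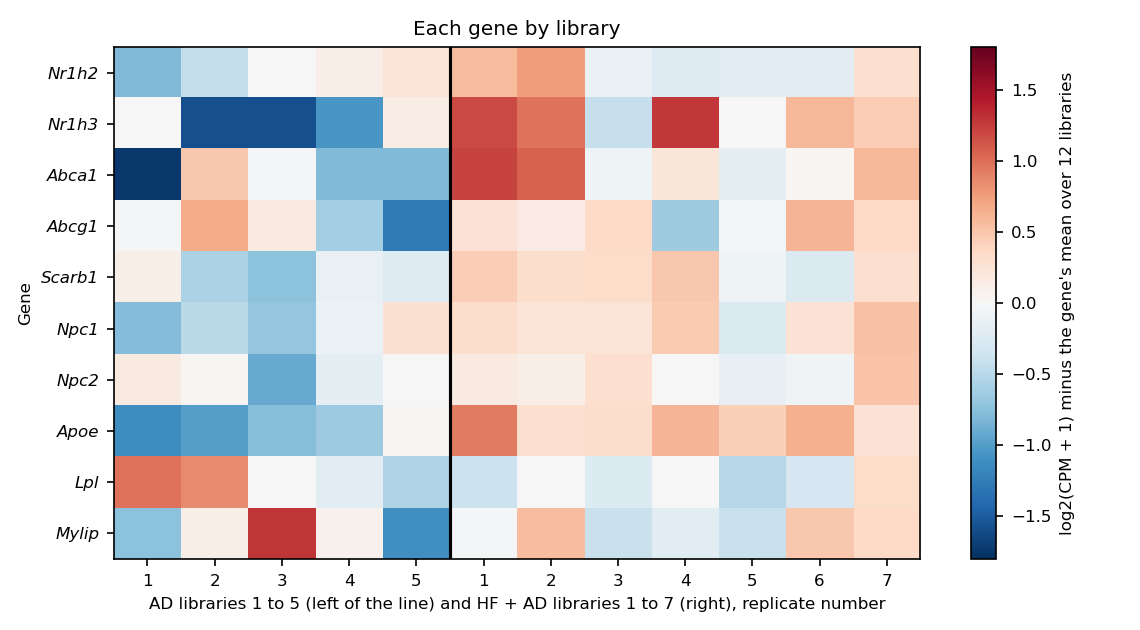
Deviation of log2(CPM + 1) of each gene (rows) from its mean over the 12 libraries (columns, the AD group left of the line). HF + AD libraries 1 and 2 are high for Nr1h2, Nr1h3 and Abca1, AD libraries 1 and 2 are high for Lpl, and Apoe alone changes at the line in every library but AD library 5.

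The members did not all have their highest and lowest values in the same libraries, though some of them did. Within the AD group, library 1 was the lowest for Abca1, Apoe, Nr1h2 and Npc1 and the highest for Scarb1, Lpl and Npc2. AD library 5 was the highest for Apoe, Nr1h2, Nr1h3 and Npc1 and the lowest for Abcg1, Lpl and Mylip. Within the HF + AD group, library 5 was the lowest for Abca1, Lpl, Npc1 and Npc2, and library 7 the highest for Lpl, Npc1 and Npc2. The coefficient of variation was larger in the AD group for 9 of the 10 members (all but Nr1h2), with medians over the members of 40.4% and 23.8%. The medians over all genes tested were 38.3% and 24.2%.

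The genes whose pattern over the 12 libraries was closest to a member were named by the mean absolute difference of standardised log2(CPM + 1), in SD units, over 11637 genes with a mean count of at least 50. Closest to Apoe were Pkp3 (0.18), a desmosome plakophilin, Cpm (0.20), a membrane carboxypeptidase, and Cdkn1a (0.24), the cell cycle inhibitor p21. Of the other members, Npc1 was nearest to Apoe (0.46) and Lpl farthest (1.45). Closest to Abca1 were Sec24c (0.23), a coat protein of vesicles leaving the endoplasmic reticulum, Npr2 (0.27), a natriuretic peptide receptor, and Rab4b (0.30), a GTPase of recycling endosomes, while Nr1h2 was the nearest member (0.58). Closest to Lpl were Macrod2 (0.33), H2-Q9 (0.33) and Fam49b (0.34). H2-Q9 belongs to a family of near-identical genes whose reads may be split between copies.

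Markers of epidermis and macrophages were read beside Apoe. Of 11 keratinocyte markers 3 were called higher, the basal keratins Krt5 (log2 fold change 0.81), Krt14 (1.04) and Krt15 (1.21), with 0 called lower. Of all genes tested, 4.43% were called higher and 4.77% lower. The list as a whole went both ways, with 6 higher and 5 lower and a median log2 fold change of 0.073, and among the lower ones were Trp63, a regulator of basal cells (-0.29), and the suprabasal keratin Krt10 (-0.42). The summed level of the 11 was 9239 to 23980 CPM in the AD group and 11850 to 25400 CPM in the HF + AD group. Krt5, like Apoe, did not overlap, at 2232 to 3807 CPM in the AD group and 4043 to 6641 CPM in the HF + AD group. Krt15 did not overlap either, at 137 to 195 and 220 to 860 CPM. Of all genes tested, 2.89% were higher without overlap. Of 14 macrophage markers 13 had a positive log2 fold change, with a median of 0.94, but 0 were called by edgeR. At an unadjusted p under 0.05, 5 were higher and 0 lower, beside 12.3% and 12.8% of all genes tested. The summed level of the 14 was 230 to 532 CPM in the AD group and 320 to 672 CPM in the HF + AD group. Adgre1, the 1 marker with a negative log2 fold change (-0.12), was at 0.606 to 8.43 and 1.30 to 5.41 CPM. No marker was at 0 in a whole group. The part of these cell types in the Apoe values was not tested.

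Wider genes of the route were read from 4 lists of 72 genes, and 59 of them passed the filter on low counts. There edgeR called 0 genes higher and 6 lower, with 7 higher and 11 lower at an unadjusted p under 0.05. The shares over all genes tested were 4.43% higher and 4.77% lower by the adjusted p, and 12.3% and 12.8% by the unadjusted p. DESeq2 and limma-trend each called the same 6 lower and 0 higher. The median log2 fold change over the 59 was -0.039. In the list of other LXR targets, 17 of 22 genes were tested, 8 higher and 9 lower by direction. Of these, edgeR called 3 lower, namely Scd1, Smpdl3a and Nampt, and 0 higher. Scd1, the desaturase that makes monounsaturated fatty acids, was at 1411 to 2270 CPM in the AD group and 917 to 1577 CPM in the HF + AD group (log2 fold change -0.74, SE 0.16, adjusted p = 0.0126, edgeR). Of 7 sebocyte markers tested, 6 were lower with a median of -0.50, 0 of them called by edgeR (3 at an unadjusted p under 0.05), and none of the list was at 0 in a whole group. Their summed level was 1200 to 2693 CPM in the AD group and 919 to 2285 CPM in the HF + AD group, and their part in the Scd1 values was not tested. Smpdl3a, a phosphodiesterase, fell by 0.90 on the log2 scale (adjusted p = 0.0197, edgeR), and with library quality weights the call was lost (-0.67, adjusted p = 0.0636). Nampt, an enzyme of NAD synthesis, fell by 0.71 (adjusted p = 0.0242), a call that was lost without AD library 2 (adjusted p = 0.0590) and without HF + AD library 2 (0.0544). Fasn, the fatty acid synthase (0.52, adjusted p = 0.0900), and Tgm2, a transglutaminase (0.78, adjusted p = 0.0951), had the smallest p among the higher ones but did not pass. Srebf1, the lipogenic regulator that LXR induces, had a log2 fold change of -0.010 (SE 0.21), and Apoc1, the neighbour of Apoe on chromosome 7, of -0.13 (SE 0.20). The intestinal and hepatic sterol exporters Abcg5 and Abcg8 had at most 2 and 11 reads in any library.

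Of 12 LXR partners and co-regulators, all tested, edgeR called 3 lower and 0 higher, beside 4.77% and 4.43% of all genes tested. By direction 7 were higher and 5 lower, with a median log2 fold change of 0.093. At an unadjusted p under 0.05 in edgeR, 2 were higher and 3 lower, beside 12.3% and 12.8% of all genes. Rxra, the retinoid X receptor that pairs with LXR in skin, was at 275 to 296 CPM in the AD group and 164 to 239 CPM in HF + AD libraries, so that the groups did not overlap. Its log2 fold change was -0.52 (SE 0.12, adjusted p = 0.0137, edgeR). Tbl1xr1, a subunit of nuclear receptor corepressor complexes, had levels that did not overlap either, at 165 to 203 CPM against 61.5 to 125 CPM (log2 fold change -0.92, SE 0.16, adjusted p = 0.00492). Hdac3, the histone deacetylase of the same complexes, was at 49.8 to 109 CPM in the AD group and 24 to 54.6 CPM in the HF + AD group, and fell by 1.11 on the log2 scale (adjusted p = 0.0102). Med1, a coactivator subunit, had a log2 fold change of 0.46 (adjusted p = 0.0933) and did not pass. Rxrb, the other retinoid X receptor with steady counts, had 0.086 (SE 0.17).

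In the list for sterol ligands and esters, 15 of 16 genes were tested, and 0 were called in either direction by edgeR. At an unadjusted p under 0.05, 1 was higher (Scarb2) and 1 lower (Lipa), beside 12.3% and 12.8% of all genes tested. Scarb2, a lysosomal membrane receptor, had a log2 fold change of 0.49 (adjusted p = 0.135) and Lipa, the acid lipase of lysosomes, of -0.70 (adjusted p = 0.199), or -0.36 without AD library 1. Cyp7b1, an oxysterol hydroxylase (0.73, adjusted p = 0.283), and the lysosomal membrane protein Lamp2 (-0.19, adjusted p = 0.301) did not pass either. In the list for lipoprotein receptors and lipase control, 15 of 22 genes were tested and 0 were called. At an unadjusted p under 0.05, 1 was higher (Lrp1) and 2 lower (Sort1 and Sel1l), beside the same shares of all genes. Lrp1, a receptor for particles that carry apolipoprotein E, had 0.44 (adjusted p = 0.0901), and its chaperone Lrpap1 0.39 (adjusted p = 0.301), or 0.59 without AD library 1. Sort1, a sorting receptor, had -0.42 (adjusted p = 0.0909), and Sel1l, which helps lipoprotein lipase leave the endoplasmic reticulum, -0.28 (adjusted p = 0.113). Vldlr, a lipoprotein receptor that Mylip targets, had a log2 fold change of -0.18 (SE 0.26).

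**Figure D4:**
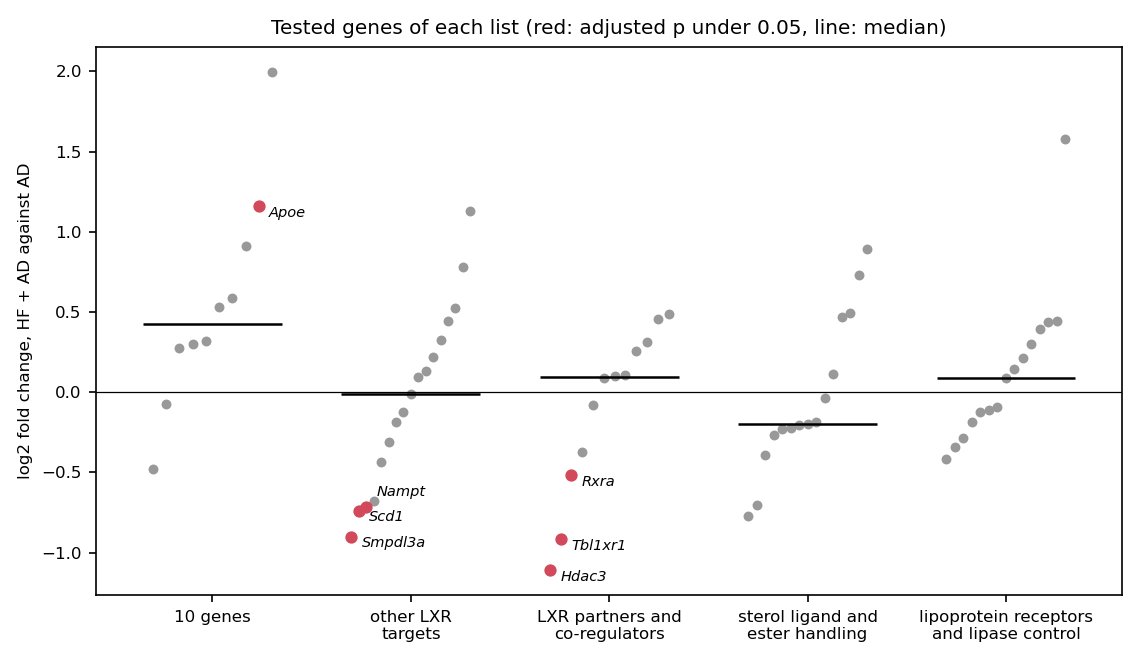
Log2 fold change in HF + AD against AD of every tested gene of the 10-gene group and of the 4 wider lists, with the median of each as a line. Apoe is the only red point above 0, and the 6 red points below 0 are Scd1, Smpdl3a, Nampt, Rxra, Tbl1xr1 and Hdac3 (adjusted p under 0.05).

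Apoe passed in all 22 alternatives, with a log2 fold change between 0.96 and 1.40 and an adjusted p between 2.08e-07 and 0.0307. Tbl1xr1 and Hdac3 passed in all 22 as well. Rxra and Scd1 passed in 21, Smpdl3a in 20 and Nampt in 19. With the replicate number of the labels as a block these 4 missed the threshold, at an adjusted p of 0.0814 for Rxra, 0.0634 for Scd1, 0.128 for Smpdl3a and 0.0995 for Nampt. HF + AD libraries 6 and 7 have no AD library of the same number, so the block leaves the comparison to 5 pairs.

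**Figure D5:**
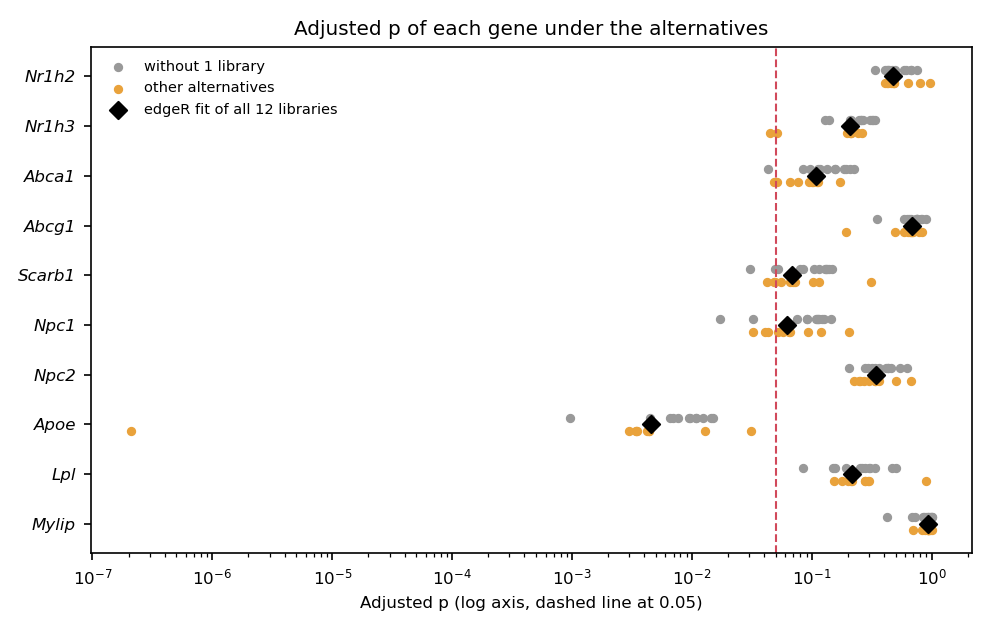
Adjusted p of each gene (log axis) in the edgeR fit of all 12 libraries (black diamonds), without 1 library (grey) and under the other alternatives (orange). Apoe stays left of the dashed line at 0.05 throughout, Scarb1, Npc1, Abca1 and Nr1h3 lie on both sides of it, and the other 5 genes stay to its right.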

How the data were processed

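RNA of 12 skin libraries (5 AD, 7 HF + AD) was prepared by the authors with the QuantSeq 3′ mRNA kit and sequenced on a NextSeq 500. The tables deposited by the authors hold unnormalised whole-number counts for each gene symbol. The submitters' processing notes name Bowtie2, bedtools and mm10, and the annotation, duplicate handling and use of strand are not given in the sources used here. Counts were analysed with edgeR 4.0.16 in R 4.3.3 (TMM factors 0.944 to 1.04, filterByExpr, quasi-likelihood fit on group alone, Benjamini-Hochberg adjustment over 14163 genes, threshold 0.05). SE is the log2 fold change divided by the root of the quasi-likelihood F. Single genes were compared on log2(CPM + 1), a pseudocount of 1, with exact permutation of the labels (two-sided, 792 arrangements), in Python 3.11.15 and SciPy 1.17.1. Alternatives used limma 3.58.1, DESeq2 1.42.0, other scalings and filters, the replicate block and leaving out each library. Library quality weights and a correction in 20 bins of transcript GC content (98.4% of entries matched to GENCODE M21) were added after seeing the data. The fits were tested on simulated data. Members, lists and the naming rule were chosen with earlier results of these data known. The rule named all members, called genes and the 2 smallest p in each direction of each wider list, and the 3 genes most like Abca1, Apoe and Lpl. Of the genes it names, 1 is not reported here. Srebf1, Apoc1, Rxrb, Vldlr, Abcg5, Abcg8, Rmc1 and the markers named fall outside it, chosen with their values already known. Summed marker levels of 7 cell types were computed. Those not given elsewhere, in the AD and the HF + AD group, were 3402 to 10280 and 3395 to 10600 CPM for dermal fibroblasts and 83.4 to 143 and 91.7 to 169 CPM for endothelium. By edgeR 2 of 10 endothelial markers were called higher (Cdh5 and Kdr) and 0 lower, and 0 of 10 fibroblast markers were called. The shares over all genes tested were 4.43% higher and 4.77% lower. By direction 6 endothelial markers were higher and 4 lower.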

Additional observations from a re-analysis of the deposited data

Results flagged for a closer look

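Of 20 sets of values tested (10 members in 2 groups), 1 held a library far from the others. In HF + AD library 5, Npc1 had a log2(CPM + 1) of 6.12 (730 reads), while the other 6 HF + AD libraries lay between 6.63 and 6.91. The gap was 0.645 of the range of the group, above the 95% critical value of Dixon for 7 libraries. Chance flags about 1 in 20 such sets. Without this library the log2 fold change of Npc1 was 0.66 (adjusted p = 0.0323, edgeR).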

How the results depend on the processing

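Over 22 alternatives each (20 for Nr1h3), the log2 fold changes of 9 members kept their direction. That of Mylip turned to 0.14 with limma-trend, 0.012 with the replicate block, 0.25 with quality weights and 0.45 without AD library 3, in a range of -0.27 to 0.45 without 1 library. Its difference in mean log2(CPM + 1) turned from 0.12 to -0.042 without AD library 1 and to -0.13 without AD library 5, in a range of -0.13 to 0.46. The cause was not tested. The number of members called higher, 1 at first, was 2 with library totals alone (Scarb1 added), 3 with at least 10 counts in every library (Scarb1 and Npc1 added), 3 with the DESeq2 Wald test (the same additions), 3 with limma-trend (Nr1h3 and Npc1 added), 2 with quality weights (Abca1 added), and from 1 to 2 without 1 library. Those 2 were reached without AD library 1 or HF + AD library 6 (Scarb1), without AD library 2 (Abca1), and without AD library 5 or HF + AD library 5 (Npc1). No alternative called a member lower. Of the wider lists, the genes called higher were from 0 to 3 without 1 library (3 without AD library 1, 2 without HF + AD library 5 and 1 without AD library 5) and 1 with quality weights (Lrp1), and those called lower, 6 at first, were 2 with the replicate block (Scd1, Smpdl3a, Nampt and Rxra lost), 5 without AD library 2 or HF + AD library 2 (Nampt lost), 5 with quality weights (Smpdl3a lost) and 7 with the GC correction (Pltp added). Among all genes tested, 1303 were called, 639 to 1461 without 1 library and 192 with the replicate block. The lowest was without HF + AD library 2, followed by 686 without HF + AD library 1, 794 without HF + AD library 4 and 803 without AD library 2. The replicate numbers do not pair the samples: deviations from the group means of same-numbered libraries correlated between -0.082 and 0.039 over 5 pairs, and 0 AD libraries correlated best with their own number. With the block, which leaves the comparison to those 5 pairs, Apoe remained called. DESeq2 gave Nr1h3 no adjusted p, and with at least 10 counts in every library it was not tested. The Nr1h3 values rest on few reads, with at most 25 in any AD library.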
